A study of Mus musculus with 30 samples.

Results

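The change in gene expression between 30 min and 4 h of contact with apoptotic Jurkat cells was measured in mouse dendritic cells labelled as Rubcn knockouts. Jurkat is a human T-cell leukaemia line. The dendritic cells were grown from bone marrow in FLT3L at 200 ng/ml, carried the label Rubcn KO (KO), and received apoptotic Jurkat cells on day 6 to 7 of culture. Of the 30 libraries of the series, 6 were compared: 3 KO libraries harvested at 4 h and 3 KO libraries harvested at 30 min, chosen by their titles, with all genes of the count table entering. The same time points with ovalbumin protein (OVA) in KO cells (6 libraries), the same Jurkat time points in wild-type (WT) cells (6 libraries) and 3 untreated KO libraries served for comparison. Both sides of the comparison hold Jurkat cells and the same knockout, so neither the knockout nor the addition of cells as such separates them. The labels do not say which part of Rubcn was deleted, how the Jurkat cells were killed or at what ratio they were given. The labels also do not say whether the 3 libraries of a group came from separate mice or cultures, so the p-values measure the spread between libraries, which may be technical.

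Rubicon, the product of Rubcn, is needed for LC3-associated phagocytosis. In this process, a branch of non-canonical autophagy, LC3 is joined to the membrane of a phagosome that holds an engulfed cell. Dendritic cells that take up dying cells digest the proteins, nucleic acids and lipids of the cargo, and can load peptides from it onto MHC class I molecules, which is called cross-presentation. Sensors of nucleic acids and of cell damage lead to interferon, to NF-kB activity and to maturation, in which the cells gain co-stimulatory molecules and the chemokine receptor Ccr7 and lose molecules used for uptake.

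The 6 libraries held 43787189 to 45501309 counts each, and 14808 genes with 99.99% of all counts were tested. Levels are given as counts per 1000000 counts (CPM) on library sizes scaled by TMM, a factor that centres the bulk of genes, which was 1.05 at 30 min and 0.836 to 0.842 at 4 h. Rubcn itself, at chr16:32821702-32868366 of mm10, was still counted in KO libraries: it stood at 66.2, 69.9 and 69.6 CPM at 30 min and 49.1, 44.4 and 50.5 CPM at 4 h (log2 fold change -0.51 ± 0.05 SE, FDR 1.3e-10), close to the 80.9 ± 1.63 CPM (mean ± SD, n = 3) of WT cells at 30 min. A count over the whole gene therefore does not check the knockout label. In 1 of the 4 h libraries (replicate 2) the ribosomal RNA gene Rn45s took 3.90% of all counts, against 0.156% to 0.204% in the other 5, and Rmrp and Rpph1 were also far higher there. None of those 3 genes is named among the changes below.

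Replicate 1 of the 30 min libraries also stood apart, in the direction of the 4 h libraries. Among the 210 genes that were at least 8-fold higher at 4 h with at least 5 CPM, its level lay above the mean of the other 2 libraries in 209, by a median of 4.73% of the gap to the 4 h mean (interquartile range 3.95% to 5.26%). The 1015 genes at least 2-fold lower at 4 h showed the same displacement, with a median of 6.81% of the gap and 776 genes on the 4 h side. In such a library a gene that is nearly silent at 30 min and strong at 4 h is raised many times over, so the largest rises below are understated relative to replicates 2 and 3, while the falls are hardly moved. The cause of the displacement was not tested, and fold changes without this library are given beside the results that rest on it.

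**Figure D1:**
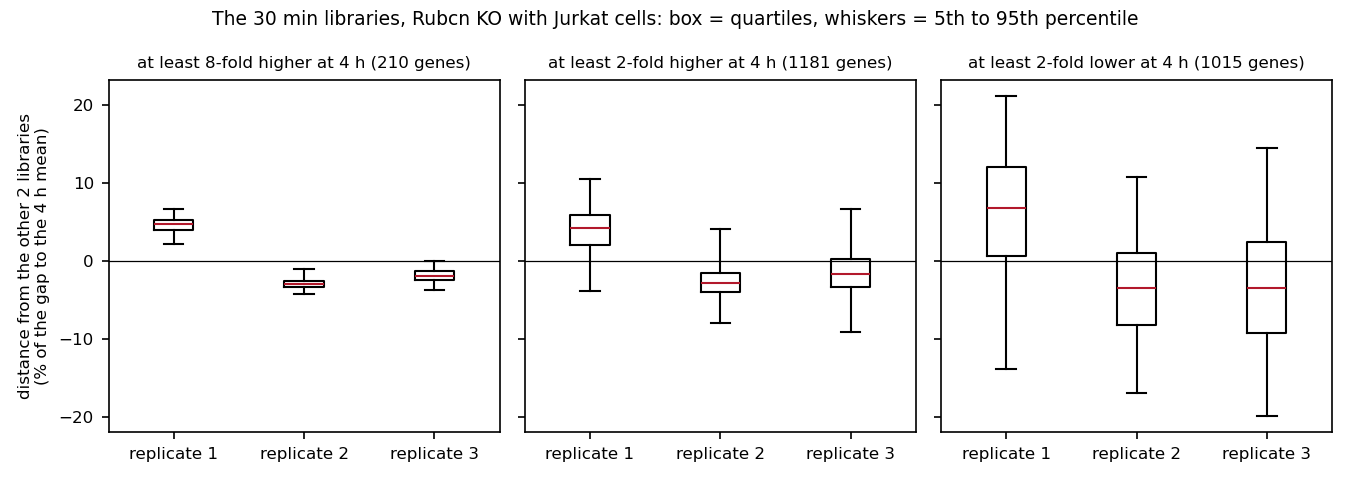
Position of each KO 30 min Jurkat library between the other 2 libraries of its group (0%) and the 4 h mean (100%), over genes grouped by their change (boxes are quartiles, whiskers the 5th and 95th percentiles). Replicate 1 has medians of 4.73%, 4.30% and 6.81%, while replicates 2 and 3 lie below 0 in all 3 groups of genes.

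Most genes differed between the time points. At a Benjamini-Hochberg adjusted p (FDR) under 0.05 in edgeR's quasi-likelihood F test, 11424 of 14808 genes were called (77.1%): 5453 were higher at 4 h (36.8%) and 5971 lower (40.3%). A change of at least 2-fold was called for 3684 genes (24.9%), of which 2176 were higher (14.7%) and 1508 lower (10.2%). At least 10-fold changes were called for 268 genes that were higher and 45 that were lower. The 6 libraries did not overlap for 5556 genes that were higher at 4 h (37.5%) and 6069 that were lower (41%). The median log2 fold change over all genes was -0.03, since TMM centres it. Scaling to total counts moved that median to -0.36, and the share of calls that were higher fell from 47.7% to 28.5% (11947 calls). The split of the genes changed by at least 2-fold turned round with it, from 59.1% higher to 36.0% higher of 4343 genes. Directions are therefore read here relative to the bulk of genes. Without both libraries that stand apart, 3441 of the 3684 genes were again called and at least 2-fold changed.

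The largest rises were inflammatory. The 10 genes that rose most, among genes that reached 5 CPM at 4 h and whose 6 libraries did not overlap, were the chemokines Cxcl3, Cxcl11, Cxcl10 and Cxcl9, the interferon-induced genes Tgtp1 (a GTPase) and Oasl1, the acute-phase gene Saa3, the nitric oxide synthase Nos2, the scavenger receptor Marco and Shisa3. Cxcl9, Cxcl10 and Cxcl11, whose products attract activated T cells through the receptor Cxcr3, lie side by side on chromosome 5. Cxcl10 (chr5:92346639-92348889) stood at 103, 8.99 and 20.6 CPM in the 30 min libraries (replicates 1 to 3) and at 2007, 1850.4 and 2080.0 CPM in the 4 h libraries, a log2 fold change of 5.49 ± 0.45 (SE, as after each log2 fold change below), FDR 4.5e-12. Cxcl9 went from 59.8, 3.81 and 9.62 to 1103, 974 and 1112 CPM (5.45 ± 0.47, FDR 1.5e-11). Nos2 went from 2.17, 0.167 and 0.260 to 38.6, 37.4 and 33.7 CPM (5.41 ± 0.28, FDR 1.2e-16). In each of the 10 genes replicate 1 was the highest of the 30 min libraries. Without that replicate the log2 fold changes were 7.06 for Cxcl10, 7.31 for Cxcl9, 7.40 for Nos2 and 7.71 for Cxcl3. The log2 fold changes of the 10 genes over all 6 libraries lay between 5.38 (Marco) and 5.65 (Cxcl3), a fold of 41.7 to 50.2, and Marco had the smallest SE, 0.22. The reads of Tgtp1 and Saa3 may be shared with close copies of these genes, so their own levels are uncertain.

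The largest falls were more even among libraries. They were Abca6 (a lipid transporter of the ABC family), Cd300lg (a receptor of the CD300 family), Hpgd (15-hydroxyprostaglandin dehydrogenase, which inactivates prostaglandins), Kif5a (a kinesin motor), Hepacam2, Dpep3 (a dipeptidase), the lysophosphatidic acid receptor Lpar5, Skint3, Lrrc3 and the leukotriene B4 receptor Ltb4r1. Cd300lg fell from 49.1, 53.4 and 51.3 CPM at 30 min to 1.61, 1.83 and 1.46 CPM at 4 h, 31.4-fold lower (-4.97 ± 0.08 SE on the log2 scale, FDR 1.5e-28). Hpgd fell from 81.0, 88.5 and 88.0 to 3.69, 2.86 and 3.13 CPM, 26.6-fold lower (-4.73 ± 0.11, FDR 4.3e-25). Abca6 fell from 10.1, 10.1 and 10.6 to 0.401, 0.212 and 0.209 CPM, 37.2-fold lower (-5.22 ± 0.19, FDR 1.9e-20). For Cd300lg and Hpgd the 3 libraries of each time point lay close together and far from the other time point. Abca6 was also far apart between the times, but its 4 h libraries spread from 0.209 to 0.401 CPM. At such low levels its fold is less certain. Untreated KO cells averaged 49.5 ± 2.16 CPM (mean ± SD, n = 3) for Cd300lg and 92.3 ± 5.52 CPM for Hpgd, near the 30 min levels. Lpar5, at 25.7, 29.2 and 31.7 CPM at 30 min and 2.09, 1.85 and 1.93 CPM at 4 h, averaged 39.5 ± 0.770 CPM untreated and so was lower at both times. Of these 10, 2 code for receptors of lipid mediators and 1 for an enzyme that breaks one down, an observation made after the values were seen. The fall in RNA per cell and the loss of cells that carry it cannot be told apart in bulk libraries, here or below.

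**Figure D2:**
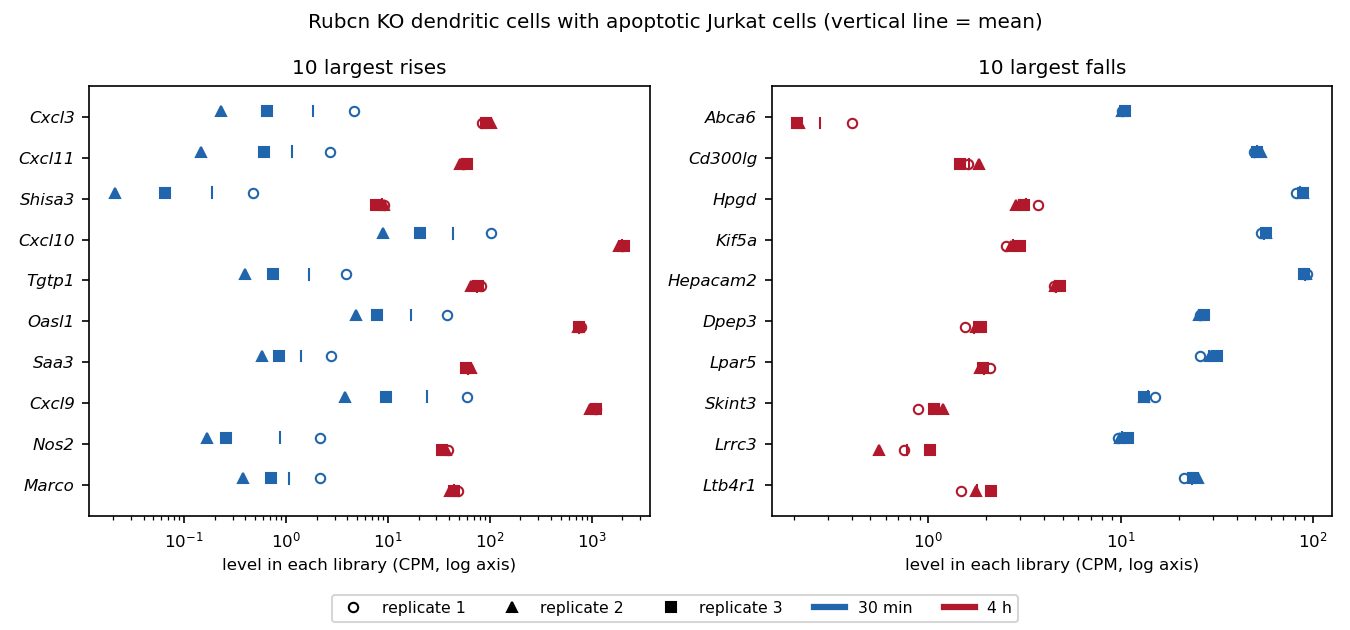
CPM of each KO library with Jurkat cells at 30 min (blue) and 4 h (red) for the 10 largest rises and the 10 largest falls, on log axes, with a symbol per replicate and a vertical line at the mean. For the rises replicate 1 (open circle) is the highest 30 min library in all 10 genes, as for Cxcl10 with 103 CPM against 8.99 and 20.6 CPM. For the falls the 30 min libraries nearly coincide.

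Type I interferons were nearly absent at 30 min and present at 4 h. Of 20 interferon genes 13 passed the filter on low counts, 12 were called higher and none lower, and each of the 12 by at least 2-fold. Genes that pass the filter through the 4 h libraries alone had to differ, so this count gives no support by itself. Ifnb1, which codes for interferon beta, stood at 0.238, 0.0209 and 0.0651 CPM at 30 min and at 4.17, 3.34 and 3.52 CPM at 4 h (5.06 ± 0.39, FDR 1.0e-11). Ifna4 had 3 counts in all at 30 min, all of them in replicate 1, and 128 counts at 4 h. Its ratio after scaling was 52.7, with a 95% counting interval of 17.6 to 259 that covers counting error only, and its reads may be shared with other interferon alpha genes.

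Interferon-stimulated genes rose without exception in the list. All 43 tested were called higher (36.8% of all genes tested were), 42 by at least 2-fold (14.7% of all genes), with a median log2 fold change of 3.94 against -0.03 over all genes. Rsad2, which codes for viperin, an antiviral enzyme, went from 106, 10.4 and 20.3 to 1909, 1702 and 1849.8 CPM (5.32 ± 0.45, FDR 7.2e-12). Isg15, a ubiquitin-like modifier, went from 52.6, 10.1 and 14.8 to 958, 885 and 932 CPM (5.16 ± 0.32, FDR 7.6e-15). Irf7, the transcription factor that amplifies interferon alpha genes, was already counted in untreated KO cells (74.3 ± 1.90 CPM) and went from 163, 79.9 and 88.5 to 1954, 1639 and 1854 CPM (4.04 ± 0.17, FDR 3.6e-19). The 4 h libraries of each gene lay within a narrow band well above all 30 min libraries. The list's median was 4.41 without both libraries that stand apart and 3.62 with total-count scaling.

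Cytokine and chemokine genes rose over a wide range. Of 40 tested, 37 were called higher, 35 of them by at least 2-fold, 2 were called lower (36.8%, 14.7% and 40.3% of all genes were) and the median log2 fold change was 3.23. Some were already raised at 30 min. Tnf, the gene of tumour necrosis factor, averaged 9.32 ± 0.193 CPM in untreated KO cells, stood at 133, 98.5 and 131 CPM at 30 min and at 1315, 1212 and 1259.6 CPM at 4 h (3.38 ± 0.09, FDR 3.1e-23). Cxcl2, a neutrophil attractant, averaged 0.389 ± 0.0983 CPM untreated and went from 51.1, 35.4 and 42.8 CPM at 30 min to 457, 473 and 462 CPM at 4 h (3.43 ± 0.11, FDR 1.0e-21). Others were low until after 30 min. Il6 stood at 7.15, 0.899 and 1.71 CPM at 30 min and 122, 124 and 130.0 CPM at 4 h (5.28 ± 0.26, FDR 3.8e-17), and 6.59 without the displaced replicate. Il12b, the p40 subunit shared by interleukin-12 and interleukin-23, went from 94.8, 23.5 and 30.1 to 1374, 1499 and 1406 CPM (4.85 ± 0.30, FDR 5.1e-15). Il12a, which codes for the other subunit of interleukin-12, was 1 of the 2 genes that fell: 21.95, 19.6 and 19.4 CPM at 30 min and 12.9, 12.7 and 14.9 CPM at 4 h (-0.59 ± 0.07, FDR 1.3e-08). Il12a and Il12b thus moved in opposite directions, and no library of one time overlapped the other time for either gene. Ccl22, a chemokine of mature dendritic cells that attracts cells with Ccr4, reached 4633, 5061 and 5014 CPM from 351, 117 and 141 CPM (24.1-fold, FDR 2.3e-16). Il1b rose 14.5-fold, to between 1272 and 1315 CPM, and Il10, an anti-inflammatory cytokine, rose 3.67-fold, to between 5.27 and 6.67 CPM (FDR 7.2e-10). Tgfb1 was the other gene called lower (-0.15 ± 0.05, FDR 0.0046), a call that did not hold with DESeq2's size factors.

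Maturation and migration genes rose as a block. All 26 tested were called higher (36.8% of all genes were), 24 by at least 2-fold (14.7% of all genes), with a median log2 fold change of 2.61. Cd40, the receptor for T-cell help, went from 72.6, 18.3 and 24.0 to 1219, 1161 and 1209.9 CPM (4.97 ± 0.28, FDR 5.3e-16). Cd86, a co-stimulatory ligand, went from 104, 81.3 and 79.5 to 499, 463 and 499.9 CPM (2.46 ± 0.07, FDR 1.0e-22). Ccr7, which guides dendritic cells to lymph nodes, went from 148, 118 and 126 to 859.5, 861 and 858 CPM (2.72 ± 0.09, FDR 1.7e-21). For these genes the 4 h libraries lay close together, and replicate 1 was the highest of the 30 min libraries. The co-inhibitory ligand Cd274 (PD-L1) rose 17.9-fold, to between 495 and 524 CPM, and the TNF-family ligands Cd70 and Tnfsf4 rose 31.1-fold and 19.1-fold to at most 8.08 CPM.

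Regulators of NF-kB and feedback genes rose in 25 of 26 cases (36.8% of all genes did), with a median of 2.42. Of these, 23 rose by at least 2-fold (14.7% of all genes did). Nfkbia codes for the inhibitor of NF-kB that is itself an NF-kB target. It stood at 189.9, 159 and 182 CPM at 30 min and at 1156, 1149.8 and 1173 CPM at 4 h (2.71 ± 0.05, FDR 3.3e-26), and averaged 87.8 ± 0.663 CPM in untreated KO cells. Tnfaip3 (A20), an enzyme that ends NF-kB signalling, rose 7.70-fold, to between 925 and 1001 CPM, and Nfkbiz rose 10.8-fold. Socs1, a brake on interferon signalling, rose 18.8-fold, to between 68.5 and 81.8 CPM, and Socs3 7.14-fold. The exception was Dusp6, a phosphatase of the ERK kinases, which fell from 78.7, 78.8 and 73.5 to 29.6, 30.8 and 34.4 CPM (-1.28 ± 0.05, FDR 4.0e-19).

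Promoters are shown for 3 of these genes, and for the sterol gene Hmgcs1 described below, as examples that hold a match and not as typical members of their lists. Each is the stretch of 250 bases before the start of the gene in RefSeq on GRCm38.p6, written 5′ to 3′ on the gene's strand, with matches in capitals. The letters searched on both strands were GAAA followed after any 2 bases by GAAA for the core of the interferon-stimulated response element, GGGA followed after any 2 bases by TTCC for a kB site and TCACNCCAC for a sterol element. Cxcl10 (chr5:92348890-92349139, minus strand) holds the response element 213 bases and the kB site 159 bases before its start. Isg15 (chr4:156200819-156201068, minus strand) holds 3 overlapping cores that begin 78, 72 and 66 bases before its start. Nfkbia (chr12:55492648-55492897, minus strand) holds a kB site on the opposite strand that begins 29 bases before its start, and Hmgcs1 (chr13:119690101-119690350, plus strand) holds the sterol element 137 bases before its start.
Cxcl10: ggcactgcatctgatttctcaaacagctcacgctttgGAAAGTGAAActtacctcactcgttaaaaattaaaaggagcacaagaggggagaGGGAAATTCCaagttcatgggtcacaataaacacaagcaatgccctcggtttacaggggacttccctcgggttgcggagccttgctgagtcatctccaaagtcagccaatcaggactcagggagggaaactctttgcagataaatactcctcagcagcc
Isg15: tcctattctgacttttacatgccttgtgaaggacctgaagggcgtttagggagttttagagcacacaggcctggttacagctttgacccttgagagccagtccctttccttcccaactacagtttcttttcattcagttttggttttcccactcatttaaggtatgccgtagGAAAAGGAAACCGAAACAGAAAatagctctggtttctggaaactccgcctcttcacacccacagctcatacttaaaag
Nfkbia: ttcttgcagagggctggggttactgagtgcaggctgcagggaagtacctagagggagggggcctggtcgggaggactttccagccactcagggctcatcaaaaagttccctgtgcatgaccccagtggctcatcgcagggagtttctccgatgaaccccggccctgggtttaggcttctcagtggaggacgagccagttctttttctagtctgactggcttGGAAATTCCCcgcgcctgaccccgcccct
Hmgcs1: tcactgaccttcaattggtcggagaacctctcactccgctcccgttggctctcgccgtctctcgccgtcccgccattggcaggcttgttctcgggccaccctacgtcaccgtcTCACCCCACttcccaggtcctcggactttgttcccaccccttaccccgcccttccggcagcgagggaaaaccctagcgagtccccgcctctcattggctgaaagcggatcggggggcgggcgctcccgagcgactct

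Over windows of 300 bases (250 before the start to 50 after it), 11595 of the tested genes had a promoter in the table. The response element core was in 3.26% of them, in 7.78% of the promoters of genes at least 2-fold higher at 4 h and in 1.83% of those at least 2-fold lower. In the promoters of genes at least 8-fold higher it was in 53 of 257, or 20.6%. The kB site was in 1.53% of all promoters, 2.24% of the 2-fold higher, 5.84% of the 8-fold higher and 1.58% of the 2-fold lower. The AP-1 site TGANTCA was in 5.37%, 7.85%, 11.3% and 5.57% of the same sets, and the sterol element in 1.04%, 1.12%, 1.17% and 1.08%. Other letters searched were TGATGNAA (2.36% of all and 6.23% of the 8-fold higher), TGACGTCA (3.06% and 1.56%) and TCACGTGA (1.85% and 0.389%). Within the lists, 17 of 31 interferon-stimulated genes with a promoter held the response element core, among them Isg15, Rsad2 and Ifit1, and 6 of 26 cytokine genes held the kB site, namely Csf1, Cxcl1, Cxcl2, Cxcl3, Cxcl10 and Il6. Of 22 promoters in the NF-kB and feedback list, 1 held the kB site, that of Nfkbia. Of 22 in the sterol and fatty acid list, 1 held the sterol element, that of Hmgcs1. These are matches of letters, with no test, and do not show binding.

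Early response transcription factors held strong rises and strong falls. Of 23 genes 9 were called higher and 9 lower, near the shares over all genes (36.8% and 40.3%), with a median of -0.01. With total-count scaling 9 were higher and 13 lower. Klf4 and Klf2, Krüppel-like factors linked to quiescence and to restraint of inflammation in myeloid cells, fell most. Klf4 went from 108, 116 and 109.8 CPM at 30 min to 8.59, 8.50 and 9.47 CPM at 4 h (12.6-fold lower, FDR 1.4e-28), and Klf2 from 46.2, 49.1 and 49.5 to 6.50, 7.28 and 7.67 CPM (6.75-fold lower, FDR 1.6e-21). Untreated KO cells averaged 108 ± 2.23 CPM for Klf4 and 48.5 ± 5.45 CPM for Klf2, near the 30 min levels. Nr4a3, an orphan nuclear receptor, moved the other way, from 85.1, 23.1 and 30.2 to 1237, 1205 and 1249 CPM (4.74 ± 0.27, FDR 6.3e-16), and the stress factor Atf3 rose 3.67-fold, to between 316 and 354 CPM. Fos, Egr1 and Nr4a1, first-wave genes, were above their untreated means at both times and changed little between them. Egr1 averaged 34.3 ± 3.39 CPM untreated and stood at 71.1, 72.7 and 79.4 CPM at 30 min and 60.8, 57.1 and 68.9 CPM at 4 h (-0.26 ± 0.09, FDR 0.012), a call lost with DESeq2 and without replicate 2 at 4 h or replicate 3 at 30 min. Fos, at 122, 119 and 126 and 111, 105 and 118 CPM against 63.1 ± 4.80 CPM untreated, was not called (FDR 0.13). It was called lower with total-count scaling (-0.46, FDR 4.9e-06) and in a fit of the compared groups alone (-0.12, FDR 0.025).

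Among genes of lipid synthesis the early sterol enzyme Hmgcs1 rose and the desaturases Fads1 and Scd2 fell. Engulfed cells bring cholesterol, which in general lowers the activity of the sterol-sensing factor Srebf2 and raises that of the LXR receptors. Of 33 genes of sterol and fatty acid synthesis 19 were called higher and 8 lower, 10 and 2 of them by at least 2-fold, and the median was 0.46. Over all genes 36.8% were called higher and 40.3% lower, 14.7% and 10.2% by at least 2-fold. With total-count scaling 16 of the list were called higher and 14 lower, 3 and 2 of them by at least 2-fold, and the median was 0.13. Hmgcs1, an early enzyme of the pathway, went from 215, 190.1 and 193 to 631, 618 and 675 CPM (1.69 ± 0.07, FDR 1.1e-18). Its 4 h libraries all lay above its 30 min libraries. Idi1, a later enzyme of the same pathway, rose 4.25-fold. The desaturases Fads1 and Scd2 fell, Fads1 from 149.6, 152 and 158 to 46.7, 45.6 and 46.4 CPM (3.31-fold lower, FDR 2.9e-24) and Scd2 by a factor of 2.42.

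The 18 targets of LXR and genes of cholesterol export were mixed, with 9 called higher and 4 lower (36.8% and 40.3% of all genes were). Their median was 0.13, which became -0.20 with total-count scaling (6 higher and 9 lower). Abca1 and Abcg1, which export cholesterol, rose 1.87-fold (65.5, 60.2 and 70.8 to 134, 115 and 119 CPM, FDR 3.5e-08) and 1.46-fold (FDR 7.3e-10). Nr1h3, which codes for LXR alpha, went from 9.62, 9.04 and 11.7 to 58.8, 47.2 and 47.2 CPM (2.34 ± 0.12, FDR 8.9e-17). Ch25h, which makes 25-hydroxycholesterol and is also induced by interferon, rose 10.9-fold, to between 12.7 and 14.3 CPM. Npc1, the cholesterol carrier of the lysosomal membrane, fell from 267, 279.8 and 276 to 167, 149 and 156 CPM (-0.80 ± 0.05, FDR 6.6e-14), and Rxra, the partner of LXR, was 1.93-fold lower.

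Most stress and redox genes rose. Of 33 genes of the integrated stress and unfolded protein responses 28 were called higher, 11 by at least 2-fold, and 3 lower. The same shares over all genes were 36.8%, 14.7% and 40.3%, and the list's median was 0.82. With total-count scaling 23 were higher and 8 lower. Slc7a11, the cystine importer, went from 14.6, 8.09 and 9.29 to 116, 128 and 122 CPM (3.52 ± 0.14, FDR 8.2e-20). Ppp1r15a, which restores translation after stress, rose 5.21-fold, Hspa5, the main chaperone of the endoplasmic reticulum, 2.43-fold, to between 2169.7 and 2276 CPM, and Asns, asparagine synthetase, 2.27-fold. Ddit3, a factor tied to cell death under stress, rose 1.53-fold, to between 18.5 and 19.6 CPM, and Psat1, of serine synthesis, was 1.62-fold lower. Among 22 NRF2 and heme genes 18 were called higher (12 by at least 2-fold) and 2 lower, to be set against the same shares. Hmox1, heme oxygenase, went from 61.9, 64.7 and 74.0 to 262, 269 and 234 CPM (1.93 ± 0.12, FDR 1.8e-14), and Txnrd1 and Nqo1 rose 3.95-fold and 6.199-fold. Slc40a1, the iron exporter ferroportin, went the other way, from 31.8 ± 3.91 CPM (mean ± SD, n = 3) to 10.6 ± 0.386 CPM (3.01-fold lower, FDR 3.1e-11).

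Glycolysis genes changed unevenly. Of 25 genes 16 were called higher and 7 lower (36.8% and 40.3% of all genes were), with a median of 0.46. With total-count scaling these were 13 and 9. The glucose transporter Slc2a1 rose 2.45-fold, Pfkfb3, an activator of glycolysis, 3.07-fold (179, 164 and 167 to 523, 516 and 523 CPM, FDR 7.5e-23), and Pfkp 3.11-fold. Pdk1, a kinase that inhibits pyruvate dehydrogenase, fell from 47.8, 49.9 and 47.8 to 17.2, 17.2 and 16.4 CPM (2.86-fold lower, FDR 2.3e-21), and Gpi1 was 1.86-fold lower. Of 66 subunits of the respiratory chain 26 were called higher, near the 36.8% of all genes, and 18 lower, with a median of 0.06. With total-count scaling none was called higher and 51 lower, with a median of -0.27, so the direction of this list rests on the scaling. Ndufa6, a subunit of complex I, was the single one with a change of at least 2-fold (2.32-fold lower, FDR 1.6e-18).

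Genes of antigen presentation by MHC class I were mostly higher. Of 31 genes of the MHC class I and cross-presentation list 28 were called higher, 10 by at least 2-fold, and 3 lower. The same shares over all genes were 36.8%, 14.7% and 40.3%, and the list's median was 0.69. With total-count scaling 19 were higher and 5 lower. Nlrc5, the transactivator of class I genes, went from 125, 76.8 and 84.5 to 964, 851 and 915 CPM (3.25 ± 0.11, FDR 2.1e-21). Tap1, a subunit of the peptide transporter, went from 368, 338 and 333 to 1173, 1043 and 1150.1 CPM (1.70 ± 0.05, FDR 2.9e-23), and H2-K1, a class I heavy chain whose reads may be shared with other class I genes, from 948, 899.6 and 905 to 2405, 2292 and 2424 CPM (1.37 ± 0.04, FDR 2.9e-23). Tapbp and Psme2 rose 3.23-fold and 3.06-fold. Of the genes tied to cross-presentation itself, Sec22b rose 1.43-fold (0.51 ± 0.04, FDR 5.3e-13) and Wdfy4, needed for cross-presentation of cell-bound antigen, fell from 1735, 1801 and 1772 to 1363, 1155 and 1246 CPM (-0.50 ± 0.05, FDR 7.2e-10).

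Of 11 class II genes 4 were called higher, the share over all genes being 36.8%, and 7 lower, against 40.3% of all genes. The chains H2-Ab1 and H2-Eb1 rose 1.70-fold and 1.94-fold, to 8441, 8114 and 8604 CPM and 8833, 8415 and 8709 CPM. H2-DMa, which loads peptides onto class II, fell from 601, 619 and 598 to 325, 288 and 319.9 CPM (-0.96 ± 0.06, FDR 1.6e-15). March1, the ubiquitin ligase that removes class II and Cd86 from the surface of immature dendritic cells, fell from 172, 166 and 154 to 53.2, 54.8 and 58.1 CPM (2.96-fold lower, FDR 4.3e-18). Ciita, the class II transactivator, was 1.12-fold lower (FDR 0.0011). These 2 chains and their transactivator thus changed in opposite directions.

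Lysosomal genes showed small changes, with 28 of 46 called higher, 14 lower, 2 in each direction by at least 2-fold, and a median of 0.28. The shares of all genes called higher and lower were 36.8% and 40.3%, and 14.7% and 10.2% by at least 2-fold. With total-count scaling 19 were higher and 21 lower, with a median of -0.05. Atp6v1d, of the proton pump, rose 2.54-fold, while Ppt1, which removes palmitate from proteins, fell from 424, 429 and 421 to 146, 134 and 137 CPM (3.05-fold lower, FDR 3.3e-24). Dnase2a, which degrades the DNA of engulfed cells, went from 78.7, 79.0 and 83.0 to 61.0, 57.5 and 58.2 CPM (-0.45 ± 0.04, FDR 2.1e-11). Tfeb, the factor that drives lysosomal genes, was 1.68-fold lower.

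Genes of LC3-associated phagocytosis and autophagy were mostly lower, with a few strong rises. Of 43 genes 25 were called lower (40.3% of all genes were) and 13 higher, with a median of -0.32, and with total-count scaling 32 and 9. Pik3c3 and Uvrag, which form the lipid kinase complex with Rubicon, fell by 0.52 and 0.37 on the log2 scale, and Becn1 of the same complex rose by 0.38. Map1lc3b, one of the LC3 proteins, went from 77.1, 77.4 and 81.4 to 61.6, 60.0 and 64.5 CPM (-0.34 ± 0.04, FDR 3.4e-09), and the kinase Ulk2 was 2.02-fold lower. Cybb, the catalytic subunit of the NADPH oxidase NOX2 that LC3-associated phagocytosis needs, went from 776, 686 and 698 to 1991, 1862 and 1998 CPM (1.44 ± 0.07, FDR 7.4e-18), and its partner Ncf1 rose 2.26-fold. The cargo receptor Sqstm1 (p62), also an NRF2 target, went from 341, 279 and 286 to 2052, 2071 and 1992 CPM (2.76 ± 0.05, FDR 8.3e-27), and the cargo receptor Optn from 8.56, 4.52 and 6.10 to 64.7, 63.1 and 65.4 CPM (3.34 ± 0.11, FDR 5.0e-21). Of the genes named here, Cybb, Ncf1, Sqstm1, Optn and Becn1 therefore rose, while Pik3c3, Uvrag, Map1lc3b and Ulk2 fell. With total-count scaling Becn1 was no longer called (0.06).

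Receptors and bridging molecules for dying cells went both ways. Of 36 genes 20 were called higher, 8 of them by at least 2-fold, and 11 lower, 6 by at least 2-fold, with a median of 0.31. Over all genes 36.8% were called higher and 40.3% lower, 14.7% and 10.2% by at least 2-fold. With total-count scaling 11 were higher and 16 lower, with a median of -0.02. Timd4, a receptor for the phosphatidylserine that dying cells expose, went from 4.29, 1.32 and 1.997 to 48.7, 46.0 and 49.4 CPM (4.25 ± 0.19, FDR 4.4e-18). Axl, a kinase receptor of the same ligand through a bridging protein, went from 144, 125 and 139 to 755, 706 and 703 CPM (2.41 ± 0.10, FDR 1.8e-19). Both Axl and Timd4 were higher in every 4 h library. The related Mertk changed 1.29-fold (FDR 0.012) and Cd36 1.42-fold (FDR 0.021), and both calls were lost without replicate 1 of either time. The log2 fold changes without the displaced 30 min replicate were 0.28 for Mertk and 0.42 for Cd36, against 0.04 and 0.18 with total-count scaling, where the calls were also lost. P2ry6, a receptor for nucleotides that leak from dying cells, fell from 92.6, 99.4 and 108 to 32.0, 32.4 and 33.0 CPM (3.08-fold lower, FDR 1.2e-22), and Cd300lf, another phosphatidylserine receptor, was 2.87-fold lower. Thbs1, which bridges dying cells to Cd36, was not called (-0.07 ± 0.10, FDR 0.5), but was called lower with total-count scaling (-0.40, FDR 0.00049).

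Innate sensors also held rises and falls, with 18 of 28 called higher (13 by at least 2-fold) and 7 lower (4 by at least 2-fold). Over all genes 36.8% were called higher and 40.3% lower, 14.7% and 10.2% by at least 2-fold. The RNA sensors Ifih1 (MDA5) and Ddx58 (RIG-I), themselves induced by interferon, rose 16.1-fold and 13.6-fold, to 659, 596 and 654 CPM and 422, 393 and 399.8 CPM. Tlr9, the endosomal DNA sensor, went from 161, 157 and 152 to 417, 347 and 383 CPM (1.29 ± 0.08, FDR 7.4e-15), and Nlrp3 rose 2.04-fold. In contrast Tlr3, the endosomal sensor of double-stranded RNA, fell from 155, 148 and 141 to 49.7, 41.2 and 45.8 CPM (-1.70 ± 0.06, FDR 3.3e-20), and Tlr11 and Tlr4 were 2.76-fold and 2.48-fold lower. Tmem173 (STING) rose 1.29-fold (FDR 8.9e-09), a call lost with total-count scaling.

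Genes of the BCL2 family that protect from apoptosis and genes that promote it both changed. Of 17 tested 12 were called higher and 4 lower (36.8% and 40.3% of all genes were). Bcl2a1a, protective and one of several near-identical genes, went from 3.75, 1.30 and 2.02 to 48.8, 50.9 and 50.4 CPM (4.41 ± 0.16, FDR 2.0e-20), Mcl1, also protective, rose 1.63-fold and Bcl2 was 1.64-fold lower. Pmaip1 (Noxa), which promotes death, rose 4.34-fold, and Bmf, of the same kind, fell from 61.5, 67.2 and 64.6 to 16.0, 15.5 and 16.7 CPM (4.01-fold lower, FDR 7.4e-24).

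Cell cycle and replication genes fell in 26 of 30 cases (40.3% of all genes did), with a median of -0.67. Mcm7, a subunit of the replicative helicase, went from 167, 184 and 178 to 81.0, 84.2 and 77.6 CPM (-1.12 ± 0.04, FDR 1.5e-19), Ccne1 was 2.11-fold lower, and Mki67, a marker of dividing cells, 1.48-fold. The inhibitor of the cycle Cdkn1a (p21) rose 14.7-fold, from 151, 83.1 and 98.5 to 1656, 1568 and 1673 CPM (FDR 5.7e-22). Ccnd2, a D-type cyclin, rose 8.33-fold (FDR 2.6e-22). Of 81 ribosomal protein genes 47 were called lower and 7 higher (40.3% and 36.8% of all genes were), with a median of -0.20, among them Rpl3 (-0.58 ± 0.04, FDR 6.0e-13). Zinc finger genes of the Zfp series fell in 205 of 344 cases and rose in 67, against the same shares, with a median of -0.37. The extremes of that list were Zfp395, which fell from 34.1, 38.8 and 38.7 to 4.201, 4.45 and 4.88 CPM (8.24-fold lower, FDR 3.2e-24), and Zfp811, which rose 15.2-fold, to between 18.2 and 20.3 CPM.

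**Figure D3:**
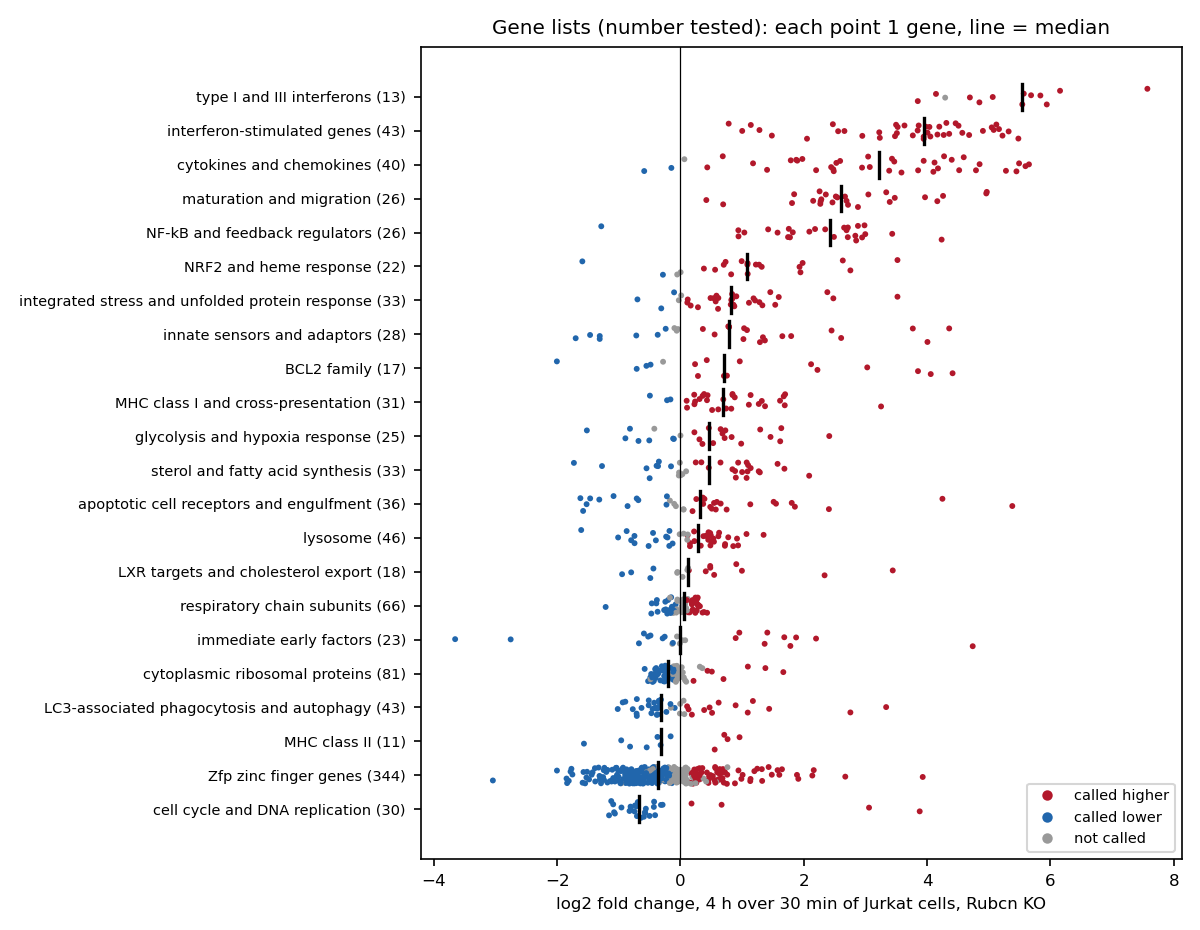
Log2 fold change (4 h over 30 min of Jurkat cells, Rubcn KO) of each tested gene of 22 lists, 1 point per gene, red when called higher, blue when called lower, grey otherwise, with a black line at the median and the number tested in brackets. Medians run from 5.54 for interferons and 3.94 for interferon-stimulated genes to -0.67 for cell cycle genes, against -0.03 over all genes. Interferon genes that passed the filter on low counts through the 4 h libraries alone had to differ, so their median gives no support by itself.

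The dendritic cell markers were present, with unequal changes among subtypes. Flt3, the receptor for the growth factor of the culture, fell from 544, 559 and 555 to 249, 229 and 244 CPM (-1.20 ± 0.03, FDR 1.2e-22), Itgax (CD11c) was 1.20-fold lower, and Zbtb46, a factor of conventional dendritic cells, rose 1.35-fold. Over all genes 40.3% were called lower and 36.8% higher, shares that stand beside the counts of markers here and in the next paragraph. Of 9 markers of type 2 conventional dendritic cells 5 were called lower and 2 higher, with a median of -0.82. The lectins Cd209a and Clec10a fell furthest, Cd209a from 147, 157 and 152 to 13.03, 11.2 and 12.3 CPM (12.5-fold lower, FDR 3.1e-27) and Clec10a from 163, 169 and 171 to 15.1, 15.04 and 19.3 CPM (10.2-fold lower, FDR 1.8e-24). Sirpa of the same list, at 598, 650.4 and 694 and 639, 591 and 594 CPM, was not called (FDR 0.078), but was called lower without the displaced 30 min replicate (-0.15, FDR 0.0051) and with total-count scaling (-0.42, FDR 3.1e-09). Of 11 type 1 markers 8 were called lower, yet Xcr1 rose 1.59-fold and Clec9a, a receptor for dead cells, 1.15-fold, a direction that reversed for Clec9a with total-count scaling (-0.12). Of 14 plasmacytoid markers 8 were called lower and 5 higher. Siglech stood at 701, 674 and 671 and 587, 535 and 605 CPM (-0.24 ± 0.06, FDR 0.00034), and Tcf4, the factor of that lineage, rose 1.25-fold, with no change under total-count scaling (-0.01). The summed level of the plasmacytoid markers was 3423 to 3558 CPM at 30 min and 3595 to 4001 CPM at 4 h, and that of the type 1 markers 3196 to 3273 and 2770 to 3172 CPM. The type 2 markers summed to 2207 to 2336 CPM at 30 min and 1520.1 to 1675 CPM at 4 h, and the 7 markers of all dendritic cells to 12344 to 12541 and 17488 to 18878 CPM. The last sum was higher in every 4 h library, while Flt3 and Itgax fell. Of its 7 genes 4 were called lower and 2 higher, with a median of -0.16. A sum follows its most abundant members: the plasmacytoid sum also rose while 8 of its 14 markers were called lower.

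Markers of other cells were also counted. The 9 monocyte or macrophage markers summed to 4065 to 4434 CPM at 30 min and 3481 to 3769 CPM at 4 h, with 4 called higher, 3 lower and 2 neither. Among them Ccr2 fell from 1112, 1056 and 999 to 386, 381 and 426 CPM (2.66-fold lower), Adgre1 rose 1.64-fold and Csf1r was not called (FDR 0.58). All 10 stromal markers were called higher, 1 of them by at least 2-fold (14.7% of all genes were). They summed to 1643 to 1787 CPM at 30 min and 2070 to 2496 CPM at 4 h. Without both libraries that stand apart 7 of the 10 were called, and with total-count scaling 4 were, with a median of 0.17 in place of 0.50. The 8 neutrophil markers summed to 137 to 147 CPM at 30 min and 113 to 118 CPM at 4 h. The 7 basophil or mast cell markers summed to 65.7 to 74.1 and 79.5 to 111 CPM, and the 6 B cell markers to 24.0 to 26.4 and 31.1 to 31.9 CPM. The part of these cells in the changes above was not tested.

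Reads assigned to genes of the T lineage rose with time. Of 25 tested T-lineage genes, chosen as genes a Jurkat cell may express, 12 lay under 1 CPM in untreated KO cells. Their sum was 28.8, 28.7 and 18.9 CPM in the 30 min libraries and 63.7, 82.4 and 69.2 CPM in the 4 h libraries, against 2.83 to 4.15 CPM in untreated KO cells. The ratio of the means was 2.82, with an exact two-sided permutation p of 0.1, the smallest that 3 against 3 libraries can give. Among these genes Cd3e, of the T-cell receptor complex, went from 1.43, 1.55 and 0.803 to 3.83, 4.77 and 3.65 CPM (1.69 ± 0.21, FDR 3.8e-08), and Zap70, a kinase of T-cell signalling, from 7.30, 8.05 and 4.97 to 22.7, 30.1 and 24.9 CPM (1.93 ± 0.13, FDR 7.7e-14). With all 25 genes, 13 of which were at 1 CPM or more in untreated KO cells, the ratio was 0.95. A further 20 genes were under 0.1 CPM in all 9 KO libraries without Jurkat cells and at least 0.5 CPM at 30 min. All 20 were at least 2-fold higher at 4 h, with a median log2 fold change of 1.70 and an interquartile range of 1.498 to 1.85. The table is of mouse genes, and how reads of the human cells were treated is not given in the sources used here, so a change in genes of this kind cannot be told apart from a change in the amount of Jurkat RNA. At 30 min 285 genes were at least 2-fold higher in KO cells given Jurkat cells than in those given OVA, and these include such genes. They also include 11 of the 43 interferon-stimulated genes and 15 of the 40 cytokine genes. Leaving the 285 genes out before scaling gave 11139 calls and 3429 genes changed by at least 2-fold, 3395 of them among the 3684. Since the 285 mix both kinds of gene, this does not single out the part of Jurkat RNA.

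OVA over the same interval moved few genes by much. In KO cells given OVA, 1893 genes were called between 30 min and 4 h (12.8%) and 84 by at least 2-fold (0.567%). Of the called genes 963 were higher (6.5%) and 930 lower (6.28%), and of those changed by at least 2-fold 65 were higher (0.439%) and 19 lower (0.128%). The difference between the Jurkat and OVA time courses, which share no library, was called for 9625 genes (65%), 4384 with a higher change under Jurkat cells (29.6%) and 5241 with a lower one (35.4%). It reached 2-fold for 3079 genes (20.8%), 1713 in the direction of a higher change (11.6%) and 1366 of a lower one (9.22%). One of the OVA libraries at 30 min (replicate 3) held 9734778 counts, and the number of calls lay between 9044 and 9526 when each of the 12 libraries was left out in turn.

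The 4 genes with the smallest p for a larger rise under Jurkat cells were Tmem39a, Tnfaip2, Nfkbia and Sqstm1. Tnfaip2, a TNF-induced gene, stood at 289.6, 249.8 and 266 CPM at 30 min and 1778, 1738 and 1767 CPM at 4 h with Jurkat cells, and at 268 ± 17.3 and 348 ± 20.3 CPM with OVA. The difference of the log2 fold changes was 2.34 ± 0.07 (SE), FDR 3.0e-21. Sqstm1 averaged 278 ± 9.43 and 314 ± 12.5 CPM with OVA, a difference of 2.58 ± 0.07, FDR 2.1e-22. With OVA both genes stayed within the range of their 30 min levels under Jurkat cells or just above it. On the side of a larger fall were Rnf144b, a ubiquitin ligase, Lbh, Dna2, a nuclease and helicase of DNA replication and repair, and Klf4. Rnf144b went from 71.4, 74.0 and 75.4 to 6.05, 6.09 and 6.34 CPM with Jurkat cells, and averaged 68.2 ± 1.13 and 63.8 ± 2.07 CPM with OVA (-3.48 ± 0.06, FDR 4.5e-26). Lbh fell from 266, 277 and 279 to 28.3, 27.1 and 27.6 CPM (-3.22 ± 0.05, FDR 2.7e-27).

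Some of the genes that rose most under Jurkat cells also rose with OVA, from and to far lower levels. All 43 interferon-stimulated genes and all 26 maturation genes rose more with Jurkat cells than with OVA by the test of the difference (29.6% of all genes did), as did 31 of 40 cytokine genes and 25 of 26 NF-kB genes. Cxcl10 averaged 3.29 ± 0.312 CPM at 30 min and 30.0 ± 6.30 CPM at 4 h of OVA, a log2 fold change of 3.22 (FDR 0.00028). Marco averaged 0.487 ± 0.176 and 4.97 ± 0.627 CPM (3.55, FDR 1.9e-07), and its rise under Jurkat cells was larger by 1.83 ± 0.60 (FDR 0.0094). Tnf averaged 39.4 ± 2.92 and 37.3 ± 2.88 CPM with OVA and was not called there (-0.06, FDR 0.75). Of 30 cell cycle genes 26 had a lower change with Jurkat cells than with OVA by the same test (35.4% of all genes did). Mcm7 averaged 172 ± 4.42 and 151 ± 2.11 CPM with OVA (-0.18, FDR 0.0049), and its fall with Jurkat cells was larger by -0.94 ± 0.06 (FDR 8.0e-14).

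**Figure D4:**
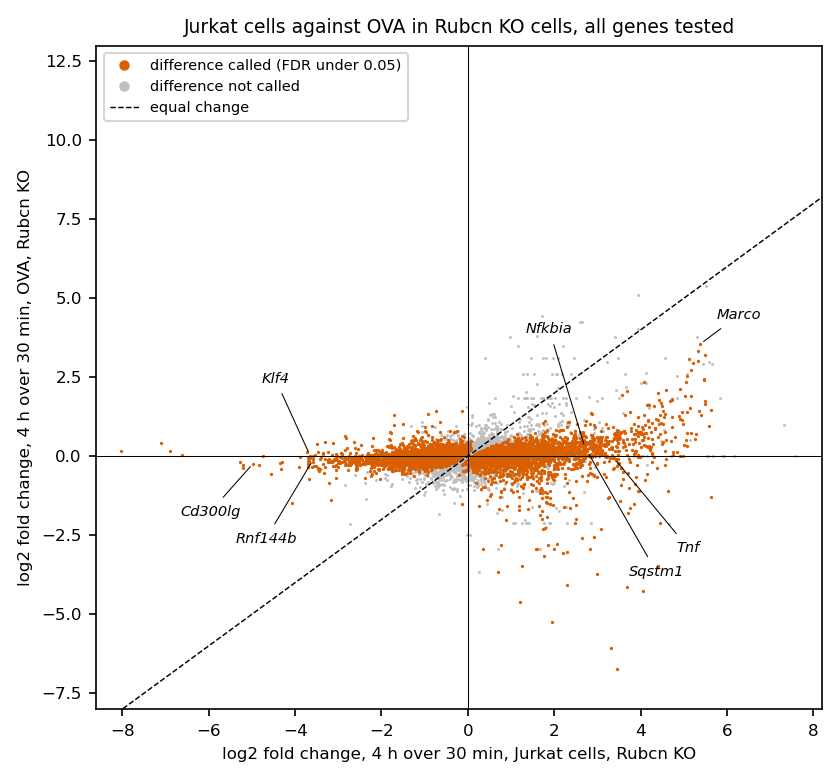
Log2 fold change from 30 min to 4 h in Rubcn KO cells given Jurkat cells (horizontal) and OVA (vertical), 1 point per gene tested, orange where the difference was called (9625 of 14808 genes), with the dashed line at equal change. The points lie along the horizontal axis: Klf4 fell by 3.65 with Jurkat cells and changed by 0.02 with OVA, while Marco rose with both.

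Most genes that changed in KO cells were also called in WT cells over the same interval. In WT, 11645 genes were called between 30 min and 4 h of Jurkat cells (78.6%), 5614 higher (37.9%) and 6031 lower (40.7%). A change of at least 2-fold was called for 4118 (27.8%), 2350 higher (15.9%) and 1768 lower (11.9%). Of the 2176 genes called and at least 2-fold higher in KO, 2074 were called higher in WT and 1 lower, and of the 1508 lower in KO 1433 were called lower in WT and 0 higher. The difference between the genotypes' time courses was called for 1307 genes (8.83%), 441 with a higher change in KO (2.98%) and 866 with a lower one (5.85%), and 88 by at least 2-fold (0.594%), 26 with a higher change in KO (0.176%) and 62 with a lower one (0.419%). That count depended on the libraries and settings used. It was 850 without the displaced KO 30 min replicate, 525 without both KO libraries that stand apart, 665 without WT replicate 2 at 4 h and 563 in a fit of the 4 groups alone. With total-count scaling 1123 of 1575 calls were higher in KO, so the split between the directions depends on the scaling. The summed T-lineage level described above was 39.6 to 41.5 CPM at 30 min and 86.1 to 115 CPM at 4 h in WT, higher at 30 min than in every KO library, and its part in these differences was not tested.

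The rule for named genes took the 4 smallest p in each direction. Il1rl1, the receptor for interleukin-33, fell less in KO: it went from 24.7, 25.7 and 24.3 to 8.86, 9.14 and 8.24 CPM in KO and from 21.7 ± 1.65 to 3.29 ± 0.177 CPM in WT, a difference of 1.21 ± 0.12 (SE) on the log2 scale, FDR 8.4e-07. Basophils and mast cells also carry this receptor, and the summed level of their 7 markers was 65.7 to 111 CPM in these KO libraries and 24.8 to 38.2 CPM in the WT libraries, whose part was not tested. Hist1h1c, a linker histone whose reads may be shared with other histone genes, fell by 0.52 in KO and by 1.63 in WT (1.11 ± 0.14, FDR 5.5e-05). Bmyc, a relative of Myc, fell in both and less in KO (0.55 ± 0.08, FDR 0.00018). Dapk1, a kinase linked to cell death, stood at 40.7, 43.2 and 41.4 and 40.8, 41.2 and 40.8 CPM in KO, where it was not called except with total-count scaling (-0.36, FDR 9.5e-08), and went from 43.5 ± 0.495 to 30.8 ± 1.99 CPM in WT (0.47 ± 0.06, FDR 0.00014).

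In the other direction Slamf7, a receptor of the SLAM family, rose in both genotypes and less in KO. It went from 306, 280.0 and 299.5 to 754, 672 and 704 CPM in KO and from 268 ± 5.63 to 921 ± 65.9 CPM in WT (-0.52 ± 0.06, FDR 4.9e-05). Mid1, a ubiquitin ligase, already differed at 30 min, when it stood at 10.8, 10.8 and 11.2 CPM in KO against 3.10 ± 0.0779 CPM in WT cells, and it rose less in KO (-0.83 ± 0.10, FDR 4.9e-05). Mtus1 fell to 3.83, 3.18 and 2.87 CPM in KO, while WT averaged 7.56 ± 0.0310 and 6.59 ± 0.925 CPM (-0.95 ± 0.13, FDR 0.00014). Supt16, a subunit of the histone chaperone FACT, averaged 162 ± 3.14 and 212 ± 4.13 CPM in WT and was not called in KO (-0.32 ± 0.05, FDR 0.00018). Its change in KO depended on the settings. It was called higher with DESeq2 and with DESeq2's size factors (0.12 in both). The stricter filter on low counts (0.12) and leaving out the 285 genes (0.08) gave the same call. With total-count scaling it was called lower (-0.26). Each of these 8 differences kept its direction and its call without both KO libraries that stand apart, in the fit of the 4 groups alone and with total-count scaling.

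The differences seen for inflammatory genes rested in part on the displaced library. Of the 210 genes at least 8-fold higher in KO with at least 5 CPM, 67 were called with a smaller rise in KO than in WT and 6 with a larger one. Over all genes 5.85% were called with a lower change in KO and 2.98% with a higher one. Without replicate 1 of the 30 min libraries 30 and 13 of the 210 were called, against 553 and 297 of all tested genes. The median difference of the 210 went from -0.46 to -0.10. Il12b, Cd40, Ifit1 and Oasl1 were among those whose call was lost: for Ifit1 the difference was -1.77 ± 0.50 (FDR 0.025) with the library and -0.38 (FDR 0.35) without it. Cxcl10 and Cxcl9 kept a smaller rise in KO without it. For Cxcl10 the difference was -3.62 ± 0.61 (FDR 0.00064) with and -2.05 (FDR 8.5e-05) without, and for Cxcl9 -4.60 ± 0.79 (FDR 0.00069) with and -2.73 (FDR 0.00027) without. At 4 h Cxcl10 averaged 1979 ± 117 CPM in KO. In WT its mean was 2543 ± 266 CPM at 4 h and 4.60 ± 0.242 CPM at 30 min. Ccnd2 (-0.76 ± 0.12, FDR 0.00046) and Tnfaip3 (-0.54 ± 0.09, FDR 0.00058) also rose less in KO and stayed called without the library (FDR 0.00014 and 0.0021).

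**Figure D5:**
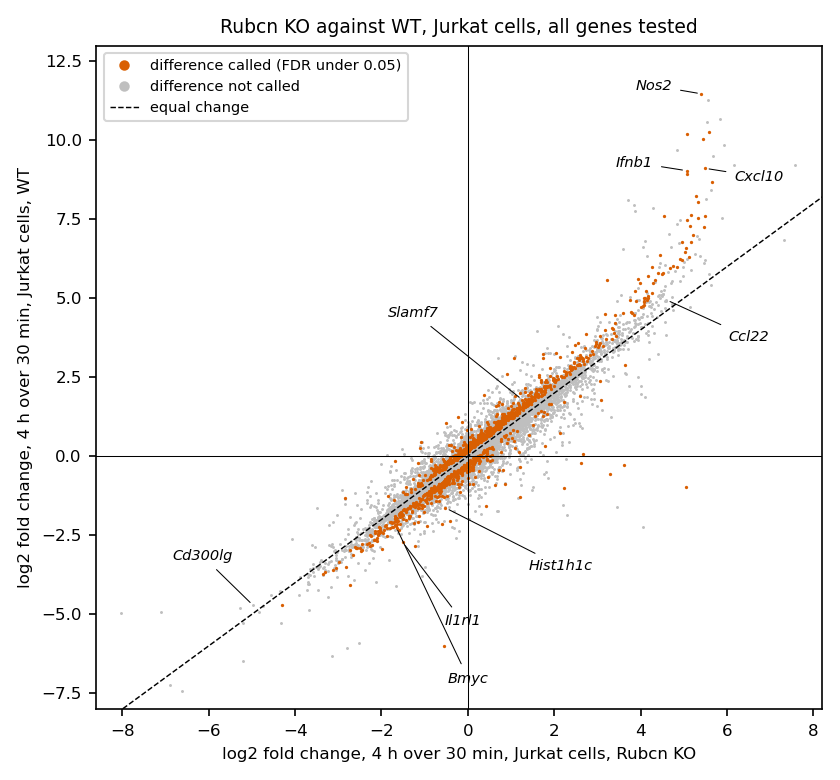
Log2 fold change from 30 min to 4 h of Jurkat cells in Rubcn KO (horizontal) and WT cells (vertical), 1 point per gene tested, orange where the difference was called (1307 of 14808 genes), with the dashed line at equal change. Most points follow the line, and the genes with the largest rises lie above it, as Cxcl10 with 5.49 in KO and 9.11 in WT, a gap that includes the displaced KO library.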

How the data were processed

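Total RNA of 30 dendritic cell samples was sequenced from TruSeq v2 RNA libraries, per the labels' protocols. The authors deposited 1 table of raw counts per mouse gene and library, per the file headers and the values, which were whole numbers. STAR 2.5, Subread with featureCounts 1.5.0-p1, DESeq2 and the mm10 build are named per the submitters' processing notes; their roles, the use of strand and the treatment of reads from the human Jurkat cells are not given in any source used here. Without strand, overlapping genes cannot be told apart, and reads of near-identical genes may be split.

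The counts were analysed with edgeR 4.0.16 in R 4.3.3: filterByExpr by group kept 14808 of 25611 genes, TMM factors were computed over all 30 libraries, and a quasi-likelihood model with 1 mean per group was fitted to all of them. Differences between time courses were tested as interactions. P-values were adjusted over all tested genes by the Benjamini-Hochberg method (FDR), with calls at FDR under 0.05 and a second rule that adds a change of at least 2-fold. SE is the log2 fold change divided by the root of F. The libraries of the groups used held from 9734778 counts upwards, and the 6 libraries compared 43787189 to 45501309. The fit was tested on simulated counts. Gene lists and members were chosen with earlier results of these data known, and no p is given for a list. A few list members are not reported here by name.

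Named genes were, by a rule, the 10 largest called rises and falls without overlap and with at least 5 CPM (unnamed gene models left out), the 4 smallest p in each direction for each difference, anchor genes set for each list, up to 3 further members of a list with the largest rise and 3 with the largest fall, and Rubcn. The alternatives were other scalings, filters and tools, a fit of the compared groups alone, leaving out libraries, and the replicate number as a block. Same-numbered libraries did not deviate together (correlations -0.05, 0.05 and -0.01). Promoters came from RefSeq on GRCm38.p6, matched by Entrez gene identifier for 11595 of 14803 tested identifiers.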

Additional observations from a re-analysis of the deposited data

Results flagged for a closer look

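The change from 30 min to 4 h of Jurkat cells differed between KO and WT for 1307 genes by edgeR's interaction test. For 8 of them, named above by the size of their p, the difference of the log2 fold changes (KO minus WT) was 1.21 for Il1rl1, 1.11 for Hist1h1c, 0.55 for Bmyc and 0.47 for Dapk1, whose changes were higher in KO. It was -0.95 for Mtus1, -0.83 for Mid1, -0.52 for Slamf7 and -0.32 for Supt16, whose changes were lower in KO. Mid1 stood at 10.8 to 11.2 CPM in the KO libraries at 30 min and at 3.10 ± 0.0779 CPM (mean ± SD, n = 3) in WT, so its genotypes differed before the interval began. The count of 1307 moved with the libraries used, and 491 of those genes were called again without both KO libraries that stand apart.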

How the results depend on the processing

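Under the alternatives, the number of genes called between 4 h and 30 min kept within 1.5 times its value, and it lay between 10988 and 11190 when each library was left out in turn. The number changed by at least 2-fold was 2153 with the stricter filter on low counts, which tests fewer genes. The number differing between KO and WT was 563 in a fit of the 4 groups alone and 525 without both libraries that stand apart (chosen after seeing the data), and it lay between 665 (without WT replicate 2 at 4 h) and 1361 when libraries were left out; the cause was not tested. The replicate number as a block gave 11473 calls, 9678 against OVA and 1404 against WT; the numbers do not pair the libraries. Scaling to total counts moved the share of higher calls from 47.7% to 28.5%, from 45.5% to 24.5% against OVA and from 33.7% to 71.3% against WT; in the fit of the 4 groups alone the last was 52%. Total-count scaling reversed Clec9a (-0.12), Tcf4 (-0.011), Supt16 (-0.26) and the medians of the LXR list (-0.20), respiratory chain (-0.27), lysosome (-0.051) and receptors for dying cells (-0.018). Csf1r and Dapk1, not called in KO except with total-count scaling (-0.37 and -0.36), changed sign with DESeq2 (0.020 and 0.032), its size factors (0.020 and 0.032) and the stricter filter (0.018 and 0.030), as did Csf1r without replicate 3 at 30 min (0.00100) and the median of the immediate early list with the stricter filter (0.070). The summed T-lineage level over all 25 genes had a ratio of 0.95. Of 178 named genes, 162 kept direction and side of the threshold in every alternative run. Counts of a few reads at 30 min, as for Ifna4, limit the precision of the rises that rest on them.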

Other observations

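Gene families that the lists above do not cover as a whole were picked after their values were seen and are given as values, with no test of a family. Some of their members, such as P2ry6 and Hspa5, also belong to those lists. Receptors for lipid mediators, amines, nucleotides and cannabinoids changed in both directions: of 40 tested, 21 were called higher and 15 lower, 10 and 13 of them by at least 2-fold. Over all genes 36.8% were called higher and 40.3% lower, so the count of lower receptors was near that share. Changes of at least 2-fold were called for 14.7% and 10.2% of all genes. Ptger3, a receptor for prostaglandin E2, went from 53.0, 57.3 and 57.7 CPM at 30 min to 6.85, 7.31 and 6.68 CPM at 4 h (-3.01 ± 0.07 SE on the log2 scale, FDR 2.8e-25 in edgeR's quasi-likelihood test), while Ptger4, another receptor for the same ligand, rose (1.58 ± 0.05, FDR 1.2e-21). Vipr1, the receptor for vasoactive intestinal peptide, fell by 3.34, and Cnr2, a cannabinoid receptor, by 3.24. Adora2a and Adora3, both adenosine receptors, moved apart, at 2.45 ± 0.06 and -2.86 ± 0.08. Fpr2, a receptor for formyl peptides, rose from 2.51, 1.25 and 1.48 to 29.8, 29.3 and 29.5 CPM (4.08 ± 0.16, FDR 6.0e-20).

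All 17 genes of the guanylate-binding protein and immunity-related GTPase families were called higher, 16 by at least 2-fold, with a median log2 fold change of 3.94, and so were all 7 Schlafen genes tested, with a median of 3.06. Reads may be shared within both families. Some of these GTPases are also in the interferon-stimulated list, so their rises are not separate from that list's. For these families and those below, the shares of all genes were 36.8% called higher, 14.7% by at least 2-fold, and 40.3% called lower. Of 65 heat shock and chaperone genes 30 were called higher and 16 lower, with a median of 0.21 that became -0.12 with total-count scaling. Hspa1a, the inducible member of the HSP70 family, went from 2.30, 1.02 and 1.17 to 34.9, 32.1 and 33.8 CPM (4.49 ± 0.18, FDR 1.3e-19). Of 8 genes of the YPEL and arrestin-domain families 7 were called lower and 1 higher, with Ypel3 at -2.45 ± 0.05 and Arrdc3 at -2.72 ± 0.12.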
